A study of Rattus norvegicus with 15 samples.

Results

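Glycolysis and hypoxia response genes were followed while rat alveolar type 2 (AT2) cells turned into type 1-like (AT1-like) cells in culture. The set was a list of 10 genes, Slc2a1, Hk1, Hk2, Pfkp, Aldoa, Eno1, Ldha, Slc16a3, Pdk1 and Ankrd37, chosen with earlier results of these data known. Each gene was read by its probe with the highest mean signal over all arrays. Of these, 9 had a named probe among the 13337 genes and 22523 probes of the array, and Hk1 was not analysed here. Freshly isolated AT2 cells of male rats (D0) and cells kept in culture for 2, 4, 6 and 8 days (D2, D4, D6 and D8) were hybridized to Illumina RatRef-12 arrays, with 3 arrays per day and 15 in all. No agent was added on any day, so time in culture was the one stated difference between the groups, and D8 is the stage that the study calls AT1-like. The labels give no purification, culture or animal for an array, so that p-values measure the spread between arrays, which may in part be technical. Slide 1 carried 10 arrays, 2 of each day, slide 2 held the remaining arrays of D2 and D4, and slide 3 those of D0, D6 and D8. Arrays are called by their slide and position, so that s1H was at position H of slide 1.

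Glycolysis breaks glucose down to pyruvate in the cytosol, and lactate dehydrogenase and lactate carriers dispose of pyruvate when it is not oxidised in mitochondria. Hypoxia-inducible factor (HIF), a dimer of an oxygen-labile alpha subunit and ARNT, binds DNA at the letters ACGTG or GCGTG and switches on many glycolytic genes when oxygen is low. AT2 cells make surfactant, which takes lipid synthesis and much energy, and are known as users of both glucose and lactate.

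The promoters of 4 members are shown first, among them the lactate carrier and the hypoxia response gene described below, because the listed genes are commonly grouped by their response to HIF and these are the stretches where its core letters can be looked for. All 9 measured members matched RefSeq by gene identifier and had 12 annotated promoters, each from 250 bases before to 50 bases after a start site on assembly GRCr8. ACGTG and GCGTG were searched on both strands, and capitals mark the matches. CACGTG, which is also the E-box of other factors, counts once on each strand. The windows lie on the plus strand at chr1:106507842-106508141 for Ldha, chr3:77113264-77113563 for Pdk1, chr10:106712078-106712377 for Slc16a3 and chr16:53001257-53001556 for Ankrd37.
Ldha: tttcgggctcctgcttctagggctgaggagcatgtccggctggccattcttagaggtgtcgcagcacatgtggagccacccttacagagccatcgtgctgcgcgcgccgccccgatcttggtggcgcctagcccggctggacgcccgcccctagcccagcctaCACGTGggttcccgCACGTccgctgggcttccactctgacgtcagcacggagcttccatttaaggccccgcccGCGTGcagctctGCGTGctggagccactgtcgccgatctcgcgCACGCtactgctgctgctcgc
Pdk1: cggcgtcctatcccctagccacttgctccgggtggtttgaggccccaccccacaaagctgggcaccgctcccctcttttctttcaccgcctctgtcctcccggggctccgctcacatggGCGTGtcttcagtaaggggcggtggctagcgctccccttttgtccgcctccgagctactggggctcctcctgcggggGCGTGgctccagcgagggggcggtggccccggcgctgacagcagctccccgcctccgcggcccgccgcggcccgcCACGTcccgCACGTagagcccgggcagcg
Slc16a3: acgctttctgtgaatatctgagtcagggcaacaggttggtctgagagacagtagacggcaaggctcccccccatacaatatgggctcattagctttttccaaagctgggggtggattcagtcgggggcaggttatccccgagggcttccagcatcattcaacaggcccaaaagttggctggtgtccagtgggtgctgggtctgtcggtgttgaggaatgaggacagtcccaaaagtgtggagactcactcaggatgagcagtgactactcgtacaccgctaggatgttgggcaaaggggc
Ankrd37: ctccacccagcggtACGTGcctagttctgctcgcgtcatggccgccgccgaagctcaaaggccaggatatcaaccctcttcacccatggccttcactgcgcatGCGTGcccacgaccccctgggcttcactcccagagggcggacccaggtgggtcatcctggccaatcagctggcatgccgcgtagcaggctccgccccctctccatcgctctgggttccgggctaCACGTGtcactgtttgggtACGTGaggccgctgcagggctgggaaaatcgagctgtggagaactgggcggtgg
The Ldha window held 6 matches and CACGTG, the Pdk1 window held 4, the Ankrd37 window held 5 and CACGTG, and the Slc16a3 window held 0. Of the 12 windows, 8 held a match, and of the 9 members Hk2 and Slc16a3 had none. Of 33469 promoters of this length in the table, 41.6% held ACGTG or GCGTG, 19.2% held 2 or more matches and 6.42% held CACGTG. A match is a description of letters, and a window with no match shows no more than that the letters are not in it.

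Between 7615 and 9787 probes were detected per array (detection p under 0.01 against the negative controls of the same array). Values are given on the log2 scale after variance stabilizing normalization (VSN), and levels of different probes were not set against each other. The labels were checked on Sftpc, the surfactant protein gene of AT2 cells, which averaged 5.82 ± 0.90 at D8 and 15.30 ± 0.08 at D0 (SD, n = 3 each), and on Aqp5, the water channel of AT1 cells, which averaged 11.44 ± 0.64 at D8 and 8.34 ± 0.55 at D0. The 7 measured AT2 markers summed to between 12600 and 18700 at D8 and to between 214000 and 262000 at D0 (linear VSN values), and the 9 AT1 markers to between 95900 and 125000 at D8 and to between 53000 and 56300 at D0. At D8 against D0, limma called all 7 AT2 markers lower and 7 of the 9 AT1 markers higher (adjusted p at most 0.05). Beside these and the marker counts below, it called 8.1% of all probes lower and 9.91% higher at D8 against D0. At D2 against D0 the shares were 8.25% lower and 10.3% higher. Cav1 and Hopx did not differ over the 5 days by limma's F test (adjusted p = 0.571 and 0.448), and Col4a3 was not detected at D0. The Cav1 probe was not detected at D2, so its values there lay at background. Summed levels of markers of other cells differed between days too, though a sum can rest on few bright probes. The 5 lymphocyte markers summed to between 244 and 325 at D8, where Cd3e, Cd3d, Nkg7 and Prf1 were not detected, and to between 557 and 719 at D0. Of the 5, 3 were called lower at D8. The summed level of 5 erythroid markers lay between 5290 and 9310 at D2 and between 34500 and 59700 at D0, with Alas2 not detected on either day. None of these 5 was called by limma at D2 against D0. At D8 the erythroid sum lay between 288 and 1200, and 2 of the 5 were called lower than at D0. The sum of 3 airway markers lay between 24400 and 38400 at D2 and between 49000 and 55600 at D0, and 2 of the 3 were called lower. At D8 the airway sum lay between 1730 and 5070, and all 3 were called lower than at D0. The sum of 10 macrophage and neutrophil markers lay between 2860 and 5470 at D0, between 2350 and 7570 at D2 and between 7790 and 10600 at D8, with Marco, S100a9 and Csf3r not detected on any day. At D8 against D0, 3 of the 10 were called higher and 1 lower. The sum of 7 fibroblast markers lay between 2450 and 3300 at D0, between 2180 and 4020 at D2 and between 11400 and 50300 at D8. Lum, Pdgfra and Tcf21 were not detected at D0 or D2, nor was Col3a1 at D2, and 2 of the 7 were called higher at D8 than at D0. The part of these cells in the results below was not tested. In bulk RNA, fewer cells of a type and less RNA per cell cannot be told apart.

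From isolation to D2, the lactate carrier gene Slc16a3 and genes for several steps of glycolysis were higher, while a hexokinase and the hypoxia response gene Ankrd37 were lower. Slc16a3, Aldoa, Eno1, Pdk1 and Pfkp rose, by 1.29 to 2.88 on the log2 scale, and Hk2 and Ankrd37 fell. Thus 5 of 9 members were higher at D2 than at D0 by limma (threshold 0.05 after Benjamini-Hochberg adjustment over all probes), beside 10.3% of all 22523 probes, and 2 were lower, beside 8.25%. Ldha and Slc2a1 did not pass. The arrays of D2 and D0 did not overlap for 6 members higher at D2, beside 15.8% of all probes, and for 2 lower, beside 14.5%. The median difference D2 minus D0 was 1.29 over the 9 measured members and -0.02 over all probes. Over the 5 days, 8 of 9 differed by limma's F test, beside 18.2% of all probes, and the exception was Slc2a1. Because members and pathway lists were chosen with earlier results of these data known, such shares, here and below, describe the lists and do not test them.

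**Figure D1:**
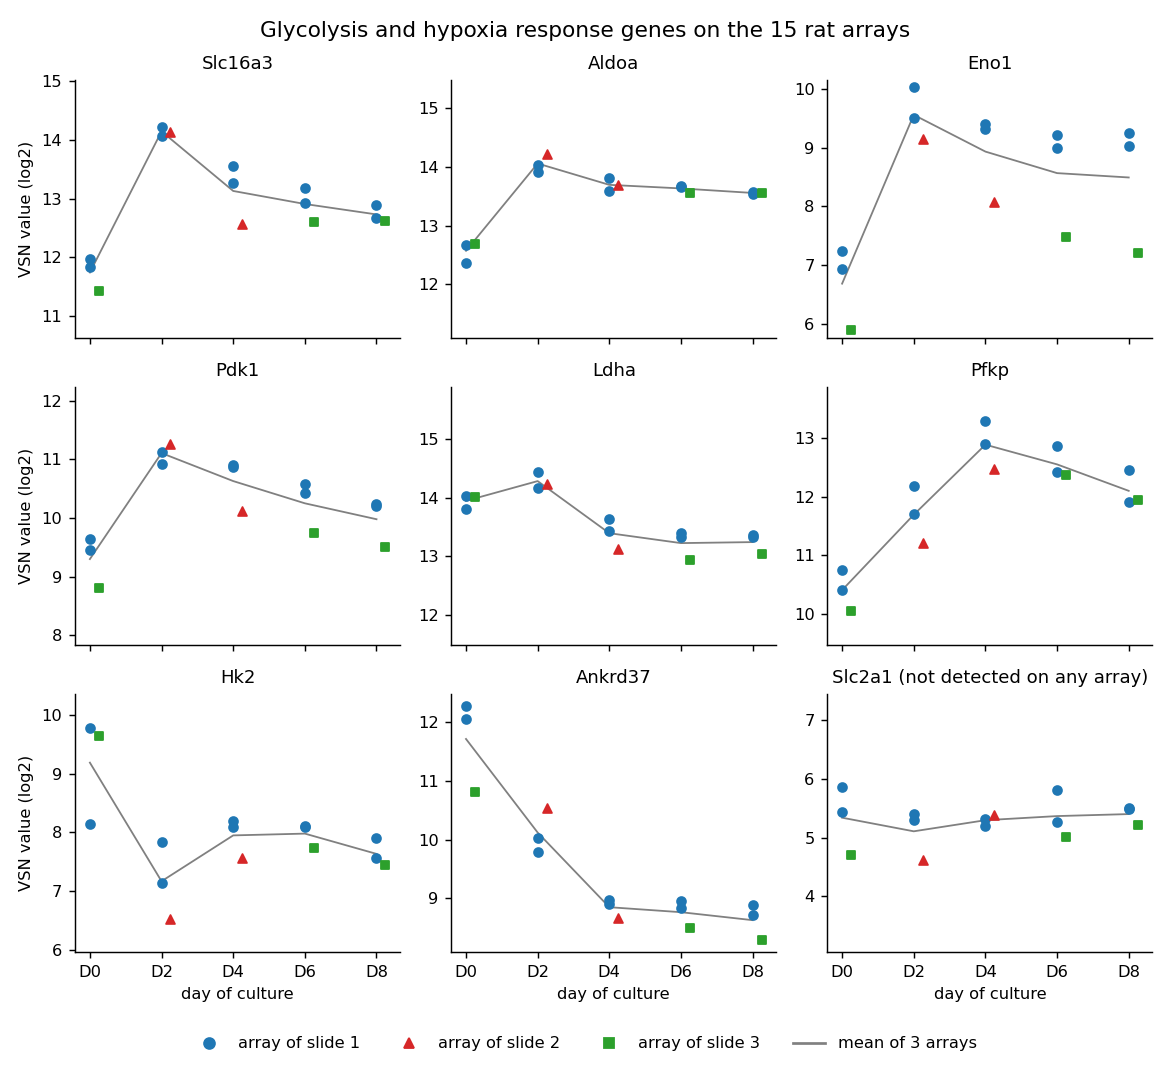
VSN value on the log2 scale (vertical axis, each panel spanning the same range) of each measured gene on every array against day of culture (horizontal axis), with arrays of slides 2 and 3 drawn slightly to the right and a line through the means of 3 arrays. Slc16a3, Aldoa, Eno1, Pdk1 and Ldha have their highest mean at D2, Pfkp at D4, and Hk2 and Ankrd37 at D0.

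Slc16a3 encodes MCT4, the carrier through which glycolytic cells export lactate. It read 11.97, 11.83 and 11.43 on D0 arrays s1H, s1I and s3A, and 14.07, 14.23 and 14.15 on D2 arrays s1C, s1D and s2A. Later it read 13.26, 13.56 and 12.57 at D4, 12.93, 13.19 and 12.61 at D6, and 12.67, 12.90 and 12.63 at D8. All D2 arrays lay above every array of the other days, and all D0 arrays lay below them. The difference D2 minus D0 was 2.41 ± 0.26 (SE, n = 3 arrays per day), a 5.30-fold rise (limma adjusted p = 1.08e-05), and kept its call under each of 27 alternatives, at 2.25 to 2.76. D8 minus D2 was -1.42 ± 0.26 (adjusted p = 0.00830), also called under each of the 27, so Slc16a3 rose and then fell. It was the one member called in both steps, beside 161 probes, or 0.715% of all. D8 stayed above D0 by 0.99 (adjusted p = 0.0132), a call lost without D8 array s1J (adjusted p = 0.058), without D0 array s3A (adjusted p = 0.057) and with scaling to a common median (adjusted p = 0.0545).

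Aldoa encodes the aldolase that splits fructose bisphosphate into 2 three-carbon sugars. It read 12.67, 12.36 and 12.69 at D0 and 14.04, 13.92 and 14.21 at D2. The values of D4, from 13.58 to 13.80, of D6, from 13.56 to 13.68, and of D8, from 13.54 to 13.57, formed a plateau between both. No D2 array overlapped with any other day. Aldoa rose by 1.49 ± 0.17, or 2.80-fold, at D2 (adjusted p = 2.32e-05), and D8 stayed 0.99 ± 0.17 above D0 (adjusted p = 8.03e-04). D8 minus D2 was -0.50 ± 0.17 with an adjusted p of 0.195, which passed after a filter on dim probes (adjusted p = 0.0369) and with a trended, robust variance model (adjusted p = 0.0302). A further Aldoa probe with a lower mean signal also rose at D2, by 1.53 ± 0.21 (adjusted p = 1.08e-04).

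Eno1 encodes enolase, which makes phosphoenolpyruvate. It read 6.93, 7.23 and 5.89 at D0, where 2 of 3 arrays detected it, and 9.50, 10.03 and 9.15 at D2. D4 gave 9.31, 9.41 and 8.08, D6 gave 9.22, 9.0 and 7.48, and D8 gave 9.25, 9.03 and 7.20. The arrays of slides 2 and 3 read lowest on every day, and the D8 array s3I lay among those of D0. Eno1 rose by 2.88 ± 0.59, or 7.35-fold, at D2 (adjusted p = 0.00288), and the difference within slide 1 was 2.69. D8 minus D2 was -1.07 ± 0.59 (adjusted p = 0.535), and -0.63 within slide 1. D8 minus D0 was 1.81 ± 0.59 (adjusted p = 0.0480), a call at the threshold that held when D0 s1I, D4 s2F, D6 s3D or D8 s3I was left out and was lost without any of the other 11 arrays, with an adjusted p up to 0.187 without D8 s1G. It was also lost with median scaling (1.15, adjusted p = 0.177) and with only the 2 days in the model (adjusted p = 0.0959).

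Pdk1 encodes pyruvate dehydrogenase kinase, which shuts off the entry of pyruvate into mitochondrial oxidation and is a known HIF target. It read 9.63, 9.46 and 8.80 at D0 and 10.92, 11.13 and 11.26 at D2. D4 gave 10.86, 10.90 and 10.12, D6 gave 10.43, 10.58 and 9.74, and D8 gave 10.19, 10.23 and 9.50. The day means stepped down after D2, and the arrays of D8 and D0 overlapped. Pdk1 rose by 1.81 ± 0.31, or 3.50-fold, at D2 (adjusted p = 7.47e-04). D8 minus D2 was -1.13 ± 0.31 and missed the threshold (adjusted p = 0.0844). It passed under 8 alternatives, among them slide as a term (-0.97, adjusted p = 0.0238) and slide 1 alone (-0.81, adjusted p = 0.0393). D8 minus D0 was 0.68 ± 0.31 (adjusted p = 0.176), and with slide as a term it passed (adjusted p = 0.0207).

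Pfkp encodes the platelet form of phosphofructokinase, the committed step of glycolysis. It read 10.41, 10.76 and 10.05 at D0, 11.70, 12.17 and 11.20 at D2, 12.90, 13.29 and 12.47 at D4, 12.42, 12.86 and 12.37 at D6, and 11.90, 12.46 and 11.94 at D8. Thus Pfkp was highest at D4, later than the other glycolytic members, and no array of D4 overlapped with D2. It rose by 1.29 ± 0.30, or 2.44-fold, at D2 (adjusted p = 0.00677), and D4 minus D2 was 1.19 ± 0.30 (adjusted p = 0.0726). That step passed under 7 alternatives, with adjusted p from 0.00421 to 0.0245. D8 minus D0 was 1.69 ± 0.30, a 3.23-fold rise (adjusted p = 9.11e-04), called under each of 27 alternatives.

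Ldha encodes the muscle-type subunit of lactate dehydrogenase, which turns pyruvate to lactate. It read 14.03, 13.81 and 14.00 at D0, 14.17, 14.44 and 14.24 at D2, 13.42, 13.64 and 13.12 at D4, 13.40, 13.33 and 12.94 at D6, and 13.37, 13.32 and 13.03 at D8. The D2 arrays lay above the D0 arrays by a narrow margin, and every array from D4 on lay below both days. D2 minus D0 was 0.34 ± 0.20 (95% interval -0.10 to 0.77, adjusted p = 0.336). It passed with neqc (0.54, adjusted p = 0.00515), with quantile normalization (0.54, adjusted p = 0.00142) and with the deposited normalized values (0.40, adjusted p = 0.0388). Ldha fell by 1.04 ± 0.20, or 2.06-fold, at D8 against D2 (adjusted p = 0.0140). The call was lost without D2 array s1D (adjusted p = 0.0703), D8 array s1J (adjusted p = 0.0512) or D8 array s3I (adjusted p = 0.061), and with only the 2 days in the model (adjusted p = 0.0884). Most of that step lay between D2 and D4, at -0.89 ± 0.20 (adjusted p = 0.0491), which held without D0 s3A or D6 s3D and was lost without any of the other 13 arrays, up to an adjusted p of 0.186 without D4 s2F. Slide 1 alone (adjusted p = 0.0755), median scaling (0.208) and only the 2 days in the model (0.158) also ended it. Against D0, Ldha was lower at D8 by 0.70 ± 0.20 (adjusted p = 0.0258). Leaving out D0 s1H (adjusted p = 0.0805), D0 s3A (0.064), D8 s1J (0.0549) or D8 s3I (0.0983) ended that call, as did median scaling (0.370), slide 1 alone (0.0614) and only the 2 days (0.118).

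Hk2 encodes the inducible hexokinase that traps glucose in the cell. It read 9.79, 8.14 and 9.64 at D0 and 7.84, 7.13 and 6.53 at D2, and from D4 on all values lay between 7.45 and 8.19. The D0 array s1I lay well below the other D0 arrays and, at 8.14, below one D4 array at 8.19. Hk2 fell by 2.02 ± 0.40, or 4.06-fold, at D2 (adjusted p = 0.00235), and scaling to a common median gave -1.11, still past the threshold. D8 minus D2 was 0.47 ± 0.40 (adjusted p = 0.775). At D8 it was lower than at D0 by 1.56 ± 0.40 (adjusted p = 0.0139), a call lost without D0 s1H (adjusted p = 0.0716) or D0 s3A (adjusted p = 0.0626), on slide 1 alone (-1.24, adjusted p = 0.0787), with median scaling (-0.95, adjusted p = 0.0572) and with only the 2 days in the model (adjusted p = 0.0618).

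Ankrd37 encodes an ankyrin repeat protein whose gene is a known HIF target. It read 12.06, 12.28 and 10.81 at D0, 9.79, 10.02 and 10.54 at D2, 8.97, 8.91 and 8.66 at D4, 8.95, 8.84 and 8.50 at D6, and 8.88, 8.71 and 8.28 at D8. Its day means descended from D0 to D8 with no peak at D2, and D0, D2 and D4 did not overlap. The D0 and D2 arrays that came closest were s3A and s2A, on slides 3 and 2. Ankrd37 fell by 1.59 ± 0.34, or 3.02-fold, at D2 (adjusted p = 0.00361), by 2.26 within slide 1, and by 1.12 with scaling to a common median, where it was not called (adjusted p = 0.0724). At D8 it was lower than at D0 by 3.09 ± 0.34, or 8.50-fold (adjusted p = 1.30e-05), the largest difference between D8 and D0 among the 9 members and called under each of 27 alternatives. D8 minus D2 was -1.49 ± 0.34 (adjusted p = 0.0317). Leaving out any array of D2 or D8 ended that call, with adjusted p of 0.0569, 0.0892 and 0.123 without D2 s1C, s1D and s2A, and of 0.0551, 0.0985 and 0.122 without D8 s1G, s1J and s3I. Median scaling (0.119) and only the 2 days in the model (0.0661) ended it too.

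Slc2a1 encodes GLUT1, the basal glucose carrier and a classical HIF target. Its probe was detected on 0 of 15 arrays, with raw signals between 156 and 200 and day means between 5.11 and 5.40. The days overlapped in each of the 6 comparisons, and no fold is given because both sides lay at background.

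Between D2 and D4 no member was called higher, beside 0.746% of all probes, and 1 was called lower, Ldha, beside 0.639%. Of the 10269 probes detected on 3 or more arrays, limma run on these alone called 365 higher and 327 lower. At an unadjusted p under 0.05, limma had 1 member higher, Pfkp, and 3 lower, Ldha, Slc16a3 and Ankrd37, beside 2187 of 22523 probes in either direction. Slc16a3 at -1.02 (adjusted p = 0.0735) and Ankrd37 at -1.27 (adjusted p = 0.0933) were on the other side of the threshold, although for both the days did not overlap. Both passed with slide as a fixed term (adjusted p = 0.0114 for Slc16a3 and 0.00931 for Ankrd37) and as a random block (0.00958 and 0.0125). In all, the days did not overlap for 1 member higher at D4, beside 9.45% of all probes, and for 5 lower, beside 8.57%. No member was called between D4 and D6 or between D6 and D8, and limma called 0.0% of all probes in these steps, with 434 and 435 probes at an unadjusted p under 0.05. The lowest unadjusted p of a member was 0.246 in D6 minus D4 and 0.154 in D8 minus D6. Non-overlapping arrays were found for 0 members in both steps, beside 3.87% of probes higher and 3.47% lower at D6 against D4, and 2.76% higher and 3.3% lower at D8 against D6.

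From D2 to D8, Slc16a3, Ldha and Ankrd37 fell, so 3 of 9 members were lower, beside 1.42% of all probes, and 0 were higher, beside 1.16%. At an unadjusted p under 0.05, limma had 0 members higher and 5 lower, Aldoa, Ldha, Slc16a3, Pdk1 and Ankrd37, beside 2694 of 22523 probes in either direction. Both days stood apart for 5 members lower at D8, with Aldoa and Pdk1 added, beside 9.15% of all probes, and for 0 higher, beside 9.32%. The median difference D8 minus D2 was -1.04 over the measured members and 0.01 over all probes. Of the 5 genes that rose at D2, Pfkp alone had a D8 mean above its D2 mean, by 0.41 ± 0.30 (adjusted p = 0.703). AT1-like cells were then compared with AT2 cells directly. Pfkp, Aldoa, Slc16a3 and Eno1 were higher at D8 than at D0, 4 of 9 members beside 9.91% of all probes, and Ankrd37, Hk2 and Ldha were lower, 3 of 9 beside 8.1%. The arrays of D8 and D0 did not overlap for 3 of the higher members, all but Eno1, beside 15.6% of probes, and for the 3 lower ones, beside 13.9%. With limma run only on the 10269 probes detected on 3 or more arrays, 473 were higher and 557 lower at D8 against D2. At D8 against D0, 2813 of them were higher and 1883 lower. The comparisons share the arrays of D0, D2 and D8.

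**Figure D2:**
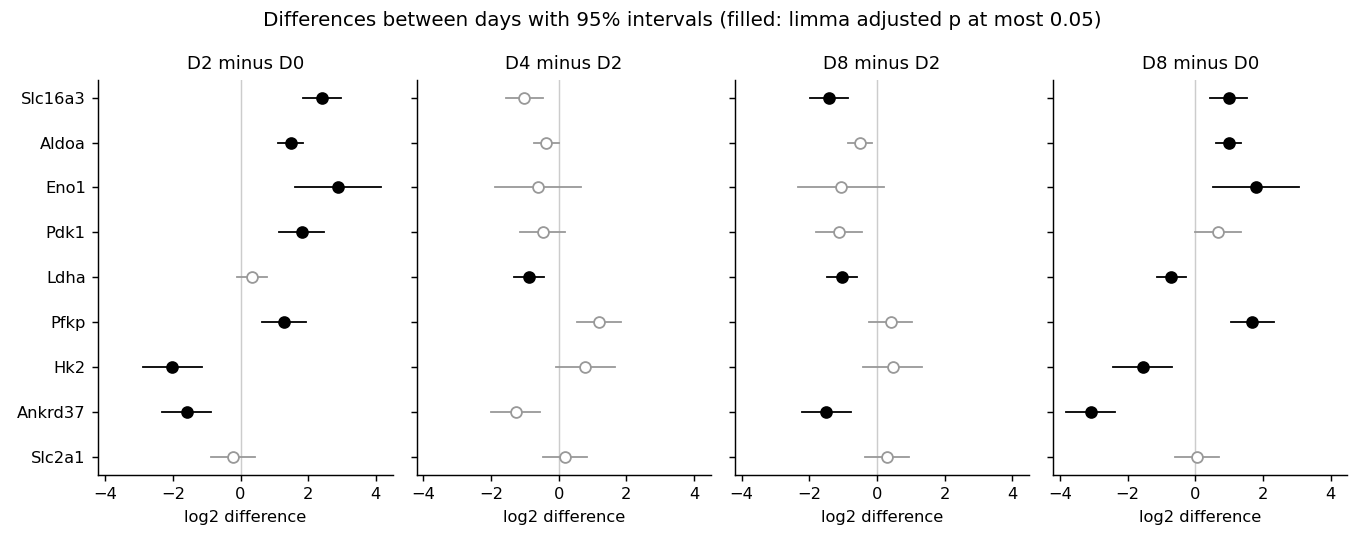
Difference between days on the log2 scale (horizontal axis) for each measured gene (rows) in 4 comparisons, with 95% intervals from limma and filled points where the adjusted p is at most 0.05. At D2 against D0 5 genes lie to the right and 2 to the left with filled points, and at D8 against D2 all 3 filled points lie to the left.

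Ordered by day, the mean was highest at D2 for Aldoa, Eno1, Ldha, Slc16a3 and Pdk1, which is 5 of 9 members, beside 26.2% of the 10269 probes detected on 3 or more arrays. Hk2 and Ankrd37 had their highest mean at D0, beside 32.9% of these probes, and Pfkp at D4, beside 15.3%. Slc2a1, which was not detected, had it at D8. Aldoa, Eno1, Slc16a3 and Pdk1 shared the full order of D2, D4, D6, D8 and D0. None of their differences between D4 and D6 or between D6 and D8 passed limma's threshold. Over the 15 arrays, which share days and slides, Slc16a3 and Pdk1 correlated at r = 0.947 and Eno1 and Pdk1 at r = 0.932, while Pfkp and Ankrd37 ran opposite at r = -0.818.

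Related genes that do the same step did not all move like the member. Slc16a1, the lactate carrier MCT1, fell by 2.04 ± 0.21 at D2, to 10.13 ± 0.26 against 12.17 ± 0.25 at D0 (adjusted p = 6.80e-06), while Slc16a3 rose, and Bsg, the chaperone that carries both to the membrane, rose by 0.80 ± 0.24 (adjusted p = 0.0282). The Bsg call was lost without D2 s1D (adjusted p = 0.0673), D2 s2A (0.121), D0 s1H (0.105) or D0 s1I (0.0813), with neqc (0.0834), with quantile normalization (0.0752) and with only the 2 days in the model (0.128). Of 5 further measured transport genes, 1 rose at D2, Bsg, beside 10.3% of all probes, and 1 fell, Slc16a1, beside 8.25%. Ldhb, the heart-type subunit of lactate dehydrogenase, fell by 1.64 ± 0.28 at D2 (adjusted p = 7.47e-04). The other aldolase Aldoc rose by 2.51 ± 0.36 at D2 (adjusted p = 1.47e-04) and the liver phosphofructokinase Pfkl by 1.90 ± 0.30 (adjusted p = 3.36e-04). Hk3, a hexokinase known from myeloid cells, rose by 2.84 ± 0.40 (adjusted p = 1.26e-04), with 1 of 3 D0 arrays detecting it, and had its highest mean at D4, 10.72 ± 0.40, the day on which the macrophage and neutrophil markers summed to between 8890 and 16100. Their part in the Hk3 values was not tested.

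**Figure D3:**
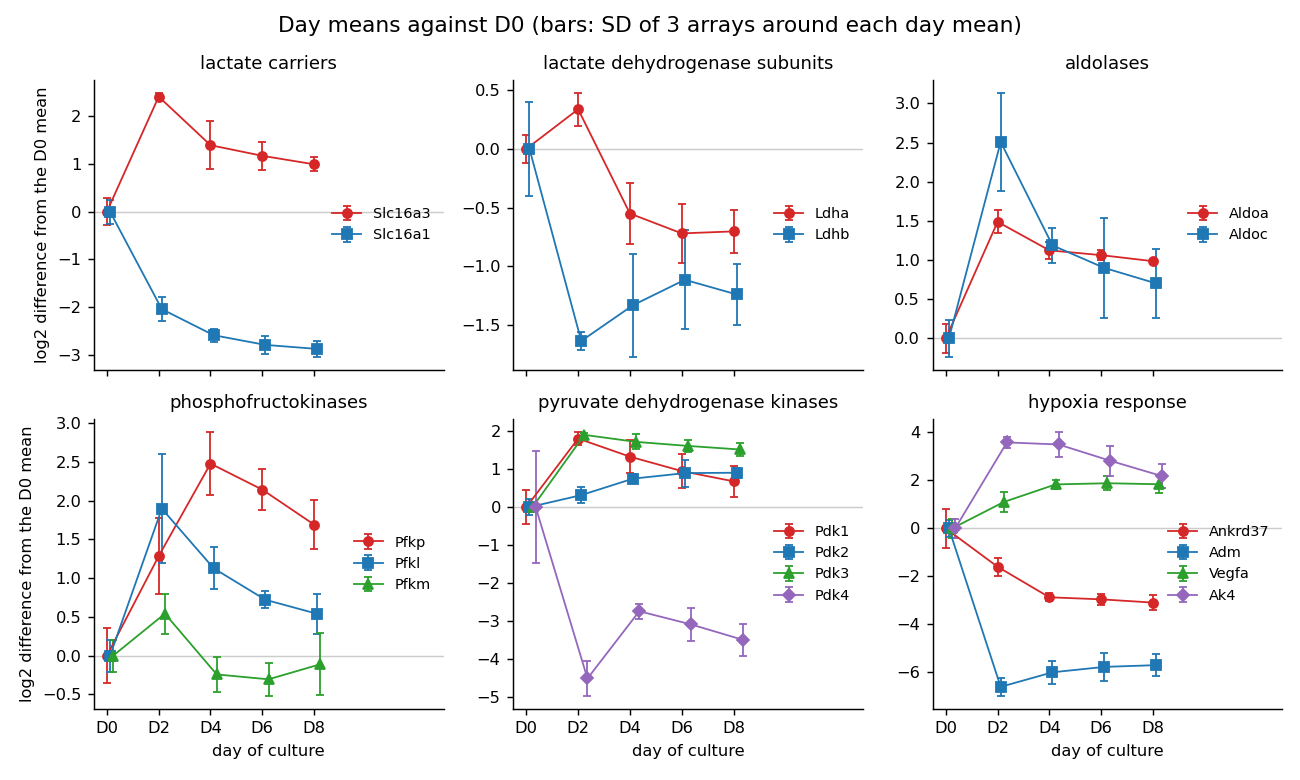
Mean of 3 arrays per day minus the D0 mean on the log2 scale (vertical axis) against day of culture (horizontal axis), with bars for the SD of the 3 arrays of that day, for members and genes of the same family or response. At D2, Slc16a3 and Slc16a1, Ldha and Ldhb, and Pdk1 and Pdk4 lie on opposite sides of the D0 level, although the Ldha difference was not called. Ak4 was not detected on any D0 array.

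At the gate to mitochondria, Pdk3 rose with Pdk1, by 1.90 ± 0.18 at D2 (adjusted p = 3.65e-06). Pdk4, the kinase isoform known to be induced by fasting and glucocorticoids, fell by 4.52 ± 0.54 to 6.94 ± 0.45 at D2, against 11.45 ± 1.48 at D0 (adjusted p = 3.28e-05). The phosphatases Pdp2 and Pdp1, which reverse these kinases, fell by 2.57 ± 0.29 (adjusted p = 1.97e-05) and by 1.15 ± 0.19 (adjusted p = 4.24e-04). In all, 1 of 10 further measured genes of pyruvate entry rose at D2, beside 10.3% of all probes, and 4 fell, beside 8.25%, while 0 were called at D8 against D2.

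Of 14 further measured glycolytic enzymes, 7 rose and 1 fell at D2, beside the same 10.3% and 8.25%, with a median difference of 0.81 beside -0.02 over all probes. Besides Hk3, Aldoc and Pfkl, these were Tpi1, triose phosphate isomerase, at 1.07 ± 0.21 (adjusted p = 0.00185), and Eno2, a neuronal enolase, at 1.38 ± 0.38 (adjusted p = 0.0197) with 1 of 3 D0 arrays detecting it, a call lost without D2 s1C (adjusted p = 0.0609), D2 s1D (0.0697), D0 s1H (0.0573) or D0 s3A (0.0794) and with median scaling (0.79, adjusted p = 0.171), together with Gapdh at 1.17 ± 0.32 and Pgk1 at 1.29 ± 0.19. Gapdh did not pass limma's F test over the 5 days (adjusted p = 0.145). The alternatives are not reported here for Gapdh and Pgk1. At D8 against D2, 3 of the 14 fell, beside 1.42% of all probes. These were Aldoc at -1.80 ± 0.36 (adjusted p = 0.0147), Pfkl at -1.36 ± 0.30 (adjusted p = 0.0269) and Tpi1 at -1.13 ± 0.21 (adjusted p = 0.00952), each of which had risen at D2. Leaving out 1 array ended the call for Aldoc (D8 s1G, D8 s1J or D2 s2A, adjusted p 0.0659, 0.0721 and 0.058), for Pfkl (the same 3 arrays, 0.101, 0.106 and 0.0617) and for Tpi1 (D2 s1D, 0.0533). Only the 2 days in the model ended all 3 calls (0.0855, 0.189 and 0.0841), and median scaling that of Tpi1 (0.0515). Among 7 regulators of glycolysis, Fbp2, a bisphosphatase that runs the phosphofructokinase step backwards, fell by 0.97 ± 0.21 at D2 (adjusted p = 0.00490), a call lost with median scaling (adjusted p = 0.151) and with only the 2 days in the model (0.0532), and no other passed. Of 3 measured genes of the pentose phosphate pathway, Pgls, a lactonase of its oxidative arm, rose by 0.73 ± 0.18 (adjusted p = 0.00979, and 0.109 with only the 2 days) and Rpia, the ribose phosphate isomerase, fell by 1.23 ± 0.23 (adjusted p = 0.00125, and 0.0919 with median scaling). For the regulators and this pathway too, the shares of all probes called at D2 were 10.3% higher and 8.25% lower.

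**Figure D4:**
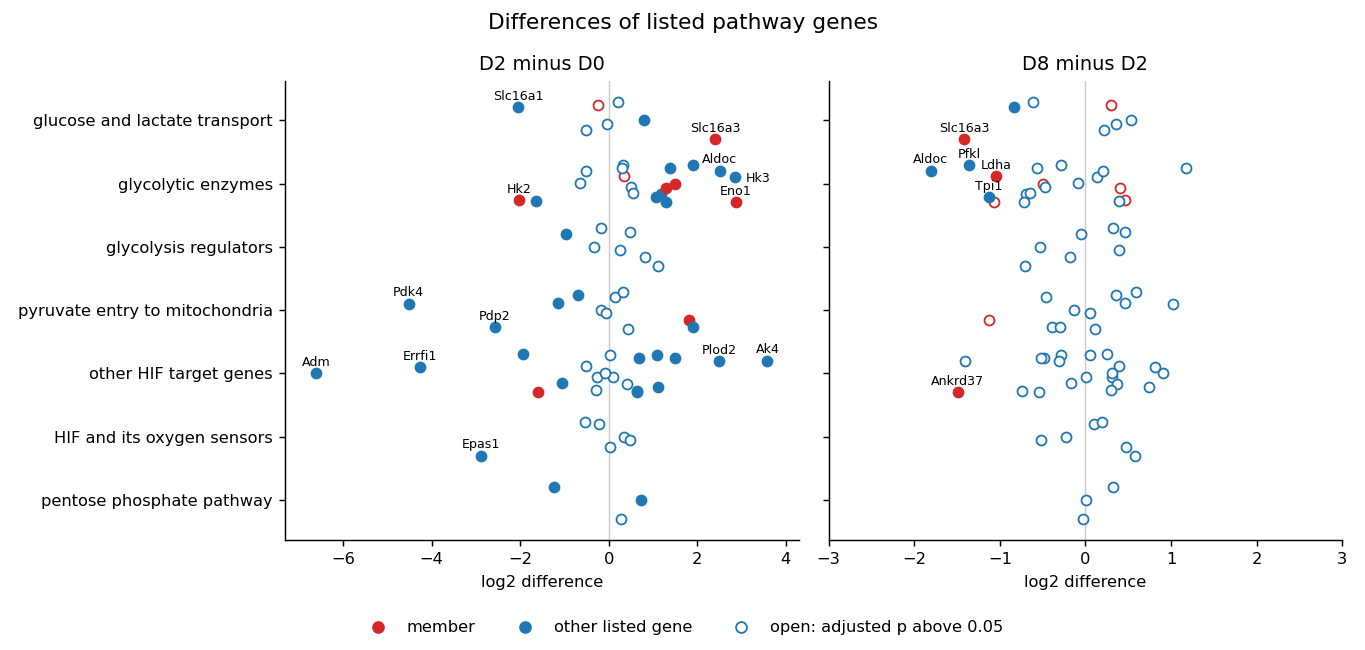
Difference on the log2 scale (horizontal axes, not the same range in both panels) of every measured gene of 7 pathway lists (rows) at D2 against D0 and at D8 against D2, with members in red, other listed genes in blue and open points where the limma adjusted p is above 0.05. At D2 glycolytic enzymes lie mostly to the right, while HIF targets reach from Adm at -6.60 to Ak4 at 3.59.

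The other HIF target genes split in both directions at D2. Of 19 measured besides Ankrd37, 7 rose, beside 10.3% of all probes, and 4 fell, beside 8.25%, with a median difference of 0.09. Ak4, an adenylate kinase of the mitochondrial matrix, was detected on 0 of 3 D0 arrays and was at least 7.82-fold higher at D2 (adjusted p = 6.66e-06). Plod2, a collagen lysyl hydroxylase, rose by 2.50 ± 0.46 (adjusted p = 0.00122), and P4ha2, a collagen prolyl hydroxylase, rose 2.83-fold (adjusted p = 0.0200). Vegfa, the endothelial growth factor, rose by 1.10 ± 0.28 (adjusted p = 0.0120) and averaged 11.60 ± 0.37 at D8 and 9.76 ± 0.39 at D0. The P4ha2 call was lost without D2 s1C (adjusted p = 0.0803), D2 s1D (0.0649) or D0 s3A (0.0811), and the Vegfa call without D0 s1I (0.051) or D2 s2A (0.0587), on slide 1 alone (0.0515) or with only the 2 days in the model (0.0614).

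Among the 4 that fell with Ankrd37, Adm, the vasodilator peptide adrenomedullin, had the widest drop, by 6.60 ± 0.35, to 6.73 ± 0.36 at D2 against 13.33 ± 0.36 at D0 (adjusted p = 2.23e-08). Errfi1, an inhibitor of the EGF receptor, fell by 4.26 ± 0.23 (adjusted p = 2.27e-08). Wsb1, a subunit of a ubiquitin ligase, fell by 1.94 ± 0.30 (adjusted p = 2.86e-04) and Ndrg1, a stress-responsive gene, by 1.05 ± 0.26 (adjusted p = 0.0112, and 0.0834 with only the 2 days in the model). All 4 were still lower at D8 than at D0, and 0 of the 19 were called at D8 against D2. In that step a fall of Ak4 passed under 10 alternatives (adjusted p from 0.00963 to 0.0499), among them slide as a fixed term (-1.23, adjusted p = 0.0179). A rise of Errfi1 passed under 6 (adjusted p from 0.0124 to 0.0441). Of 6 measured genes of HIF and its oxygen sensors, Epas1, which encodes HIF-2 alpha and is a known gene of AT2 and endothelial cells, fell by 2.89 ± 0.24 at D2 (adjusted p = 1.02e-06). The 5 measured endothelial markers summed to between 173 and 235 at D2 and between 595 and 752 at D0. Cdh5, Tek, Vwf and Tie1 were not detected on either day, so Cldn5 was the only one of the 5 above background. The part of endothelial cells in the Epas1 result was not tested. Hif1a differed by -0.55 ± 0.24 (adjusted p = 0.158) and no other passed. Thus 1 of these 6 genes was lower at D2, beside 8.25% of all probes, and 0 were higher, beside 10.3%.

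Over all 7 lists without the members, 17 of 64 measured genes rose and 13 fell at D2, beside 10.3% and 8.25% of all probes. At D8 against D2, 4 fell, beside 1.42% of all probes, and 0 rose, beside 1.16%. The fourth gene to fall late was Slc16a1, at -0.83 ± 0.21 (adjusted p = 0.0490), a call that held without D0 s1I, D2 s2A or D0 s3A and was lost without any of the other 12 arrays, up to an adjusted p of 0.208 without D2 s1D. Median scaling (0.0643) and only the 2 days in the model (0.198) ended it too.

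The genes most like each member were taken by Pearson correlation over the 15 arrays among 7457 named genes detected on at least 3 arrays. For Ankrd37 these were Mst1 (r = 0.988), Acly (0.968) and Clpb (0.968), and for Pfkp they were Stom (0.986), Npl (0.984) and Hacl1 (0.983). Eno1 ran with Pih1d1 (0.985), Apool (0.979) and Atp5f1d (0.978), and Aldoa with Rab3ip (0.973), Sgcd (0.972) and Stat2 (0.971). Pdk1 ran with Perp (0.969), Cpped1 (0.966) and Scarb2 (0.953), and Slc16a3 with Slc35b4 (0.948), Pecr (0.946) and Ap2a2 (0.944). Ldha ran with Tagln2 (0.936), Tfpi (0.932) and Palmd (0.917), and Hk2 with Ptbp2 (0.935), Cldnd1 (0.922) and Tmeff1 (0.917). No 2 members named the same gene. These are descriptions over arrays that share days and slides.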

How the data were processed

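Raw BeadStudio signals were used for 15 rat arrays. They are intensity values that the authors deposited without normalization between arrays, with a detection p-value for each. The authors also deposited VSN values on the log2 scale, made through LUMI and LIMMA, with R 2.11.1 in the submitters' processing notes, which were an alternative here. Of 22523 probes, 13793 had a single gene symbol.

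VSN was refitted to all arrays (trimming quantile 0.9, 7 rounds, 5 slices of signal). limma 3.58.1 in R 4.3.3, with statmod 1.5.0, was run on all 15 arrays with a mean for every day, and p-values were adjusted by Benjamini-Hochberg over all probes, with a threshold of 0.05. The steps were tested on simulated data with changes placed at D2. At D2 against D0, 2 of 50 changes of 0.5 on the log2 scale were called, 23 of 50 of 1, 45 of 50 of 2 and 48 of 50 of 3. Of 22323 unchanged probes, 3 were called. In the simulated data, changes of 1 or less were thus often missed. Far fewer probes were changed there than the 4181 called at D2 against D0, and the Benjamini-Hochberg cutoff depends on that number. These counts therefore do not give the share of changes missed in the real comparison. The members and lists were chosen with earlier results of these data known. Named were all members, up to 4 genes per pathway list and direction in D2 minus D0 and D8 minus D2 that passed, had a detection p under 0.01 on each array of whichever day was brighter, with no overlap between days, the 3 genes most like each member, and Sftpc and Aqp5. Pdk2 and Pfkm, plotted with their families, and Gapdh, Pgk1 and Hif1a were named after their values were seen. For a gene detected on no array of a day, the fold is a lower bound, set against the higher of its own value and the lowest detected value of each array. Probe sequences were not used here, so binding to other transcripts was not checked. Alternatives were neqc, quantile and median scaling, the deposited values, a filter on dim probes, slide fitted as a fixed term or as a random effect, the arrays of slide 1 by themselves, a trended robust variance, only the days compared, an adjusted p of 0.01, averaging a gene's probes and leaving out each array.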

Additional observations from a re-analysis of the deposited data

How the results depend on the processing

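Among the alternative values of single members, 1310 kept their direction and their side of the threshold, 38 passed only in the alternative, 64 passed only in the main analysis and 40 uncalled values changed sign. No called value reversed. At D2 against D0, leaving out 1 array gave 5 members higher and 2 lower each time, and scaling to a common median left 1 lower. At D4 against D2, 1 member was higher instead of 0 with neqc, quantile normalization, the deposited values, the filter on dim probes, slide as a term or block and the trended variance, and the count lower became 3 in each of these except the deposited values, with 2. It became 0 at an adjusted p of 0.01, with median scaling and with only the days compared. The 3 lower at D8 against D2 became 5 with the filter or the trended variance and 1 at 0.01 or with only the days compared. At D8 against D0, the 4 higher became 2 at 0.01 or with median scaling, and the 3 lower became 1 at 0.01, with median scaling, on slide 1 alone or with only the days compared. Leaving out 1 array gave 0 to 2 lower at D4 against D2, 1 to 3 lower at D8 against D2, 2 to 4 higher and 1 to 3 lower at D8 against D0, and 6 to 8 that differed over the 5 days. The cause was not tested. Over all probes, 4181 were called at D2 against D0, against 2721 at 0.01 and 2738 with only the days compared, and 4058 at D8 against D0, against 2703 and 2556 in these. In the same way, 312 were called at D4 against D2, against 96 at 0.01, 113 with only the days compared, 108 to 383 without 1 array and up to 979 with slide as a term, and 581 at D8 against D2, against 192 with only the days compared, 249 to 680 without 1 array and up to 1201 with quantile normalization. Median scaling gave 2823 higher and 1202 lower at D2 against D0, in place of 2322 and 1859, 88 and 154 at D4 against D2, in place of 168 and 144, 108 and 323 at D8 against D2, in place of 262 and 319, and 1911 and 1205 at D8 against D0, in place of 2233 and 1825. No paired analysis was possible because the labels give no replicate numbers. Probes near background, Slc2a1 and Eno1 at D0 among the members, and 3 arrays per day limit the precision.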
